A study of Rattus norvegicus with 20 samples.

Results

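The 9 genes described here are the corticosteroid receptor genes *Nr3c1* and *Nr3c2* and 7 genes known to be induced when these receptors are active, *Fkbp5*, *Sgk1*, *Tsc22d3*, *Zbtb16*, *Pdk4*, *Cdkn1a* and *Errfi1*. They were taken by symbol from the 31038 genes of the deposited count matrix, and all 9 passed the filter on low counts. The matrix holds RNA-seq reads counted per gene in the medial prefrontal cortex (mPFC) of 20 male Sprague-Dawley rats, with 1 poly(A)-selected library per rat. Intraperitoneal injections were given on alternate days for 90 days, of LSD (lysergic acid diethylamide, a hallucinogen that acts at serotonin receptors) at 0.16 mg/kg in 10 LSD-treated rats and of sterile saline in 10 controls. All rats were 6 to 8 weeks old and weighed 180 to 200 g when treatment began, were housed singly, and had stopped treatment for 3 weeks according to the series description. The methods of the study give a longer interval and older rats, the same for both groups. The comparison asks what remains altered in the mPFC after the drug has been stopped.

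Corticosterone, the main glucocorticoid of the rat, enters cells and binds a pair of related nuclear receptors, the glucocorticoid receptor encoded by *Nr3c1* and the mineralocorticoid receptor encoded by *Nr3c2*. Unliganded glucocorticoid receptor is held in the cytoplasm by a chaperone complex around the heat shock protein HSP90, and hormone binding sends it to the nucleus, where it binds DNA and raises or lowers the transcription of its target genes. In the brain, glial and vascular cells as well as neurons carry the response. *Sgk1*, *Tsc22d3*, *Zbtb16* and *Fkbp5* are among its standard reporters, and the protein made from *Fkbp5* in turn lowers the affinity of the receptor for hormone.

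Between 16346629 and 25552681 reads fell on genes in each LSD-treated rat and between 11098076 and 24201351 in each control, and the LSD libraries were larger (exact two-sided rank sum test, p = 0.0147). Genes that mark the neighbouring striatum were unevenly present: *Adora2a* was above 20 normalised reads per 1000000 (RPM) in LSD rat 9 and in control rats 2, 8 and 9, with 28.7, 30.9, 44.6 and 42.4 RPM, and between 5.34 and 13.7 RPM in the other rats. All 5 striatal markers had negative log2 fold changes (median -0.80), with summed levels of 100 to 207 RPM in LSD-treated rats and 116 to 317 RPM in controls. None of them passed the adjusted threshold in edgeR or DESeq2. All 5 had an unadjusted p under 0.05 in edgeR, at which 16.3% of all genes were lower. The part of tissue composition in the results below was not tested, and member genes are therefore also given without these 4 libraries where this changes a call.

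The promoters of *Sgk1*, *Tsc22d3*, *Errfi1* and *Pdk4* are shown because these 4 genes varied together from rat to rat, as described below. For *Sgk1* and *Tsc22d3*, which have 3 windows each, the one shown was chosen for its TATA box after the motifs had been searched. Each window, from RefSeq on the GRCr8 build, runs 5′ to 3′ from 250 bases before to 50 bases after an annotated start site, the point from which distances are counted. Capitals mark the TATA box (TATAAA or TTTATA) and the half-site of the cAMP response element (TGACG or CGTCA).
Sgk1, chr1:24804782-24805081, minus strand: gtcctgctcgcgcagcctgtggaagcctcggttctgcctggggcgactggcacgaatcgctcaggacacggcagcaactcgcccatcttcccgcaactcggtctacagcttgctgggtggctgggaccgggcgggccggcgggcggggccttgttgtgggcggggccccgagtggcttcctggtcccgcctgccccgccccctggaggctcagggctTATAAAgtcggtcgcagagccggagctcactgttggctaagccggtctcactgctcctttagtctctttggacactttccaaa
Tsc22d3, chrX:109009985-109010284, minus strand: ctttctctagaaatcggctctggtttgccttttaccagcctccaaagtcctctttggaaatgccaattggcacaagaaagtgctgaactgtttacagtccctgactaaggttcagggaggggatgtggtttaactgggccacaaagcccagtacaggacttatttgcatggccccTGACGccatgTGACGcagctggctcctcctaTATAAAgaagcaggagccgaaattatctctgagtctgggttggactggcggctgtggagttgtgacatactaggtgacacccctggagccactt
Errfi1, chr5:166606591-166606890, plus strand: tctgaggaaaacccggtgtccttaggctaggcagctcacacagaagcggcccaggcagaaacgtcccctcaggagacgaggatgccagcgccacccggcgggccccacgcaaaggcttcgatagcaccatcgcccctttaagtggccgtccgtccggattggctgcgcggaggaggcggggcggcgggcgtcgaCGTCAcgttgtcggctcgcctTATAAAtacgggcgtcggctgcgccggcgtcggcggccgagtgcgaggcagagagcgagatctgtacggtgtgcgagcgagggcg
Pdk4, chr4:34568280-34568579, minus strand: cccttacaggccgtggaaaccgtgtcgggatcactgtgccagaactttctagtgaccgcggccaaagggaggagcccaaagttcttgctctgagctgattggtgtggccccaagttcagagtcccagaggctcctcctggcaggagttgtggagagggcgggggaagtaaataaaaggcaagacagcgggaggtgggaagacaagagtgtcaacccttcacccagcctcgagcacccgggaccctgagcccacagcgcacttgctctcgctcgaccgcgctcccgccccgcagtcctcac
In the windows shown, the TATA box began 33 bases before the start site for *Sgk1*, 44 before it for *Tsc22d3* and 35 before it for *Errfi1*, and the *Pdk4* window held none. The *Tsc22d3* window carried 2 half-sites of the cAMP response element and the *Errfi1* window 1. Of the other *Sgk1* windows, 1 had a TATA box 55 bases before its start site and 1 had none, and the other *Tsc22d3* windows held neither a TATA box nor a cAMP half-site. The table of promoters matched 7 of the 9 genes with 12 windows, several for genes with alternative start sites, and had none for *Nr3c2* and *Zbtb16*. On either strand, a TATA box was present in 4 of the 12 windows and in 14.2% of all 33469 promoter windows of 300 bases. The cAMP half-site was present in 3 of 12 and in 21.2% of all windows, and a GC box (GGGCGG or CCGCCC) in 9 of 12 and in 33.1% of all windows. None of the 12 held the full glucocorticoid response element, AGAACA and TGTTCT parted by 3 bases of any kind, which 0.0149% of all windows held, its half-site AGAACA or TGTTCT (20.7% of all windows), which is part of the full element, or the E-box CACGTG (6.42%). These matches describe the letters in the windows only.

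Expression was compared with edgeR's quasi-likelihood test on counts scaled by the trimmed mean of M-values (TMM), with Benjamini-Hochberg adjustment over 16605 genes and a threshold of 0.05. The mineralocorticoid receptor gene *Nr3c2* was called higher in LSD-treated rats, and no member gene was called lower. One call among the 9 genes is 11.1% of them, beside 6.43% of all genes called higher and 8.42% called lower (14.9% in either direction), so the count is near the background. The log2 fold change, LSD minus saline, was positive for 8 of the 9 genes, with a median of 0.17, against a median of 0.00 and 50.4% positive over all genes. At an unadjusted p under 0.05, 4 of the 9 genes were higher and none lower, beside 14.4% of all genes higher and 16.3% lower. DESeq2 called 3 of the 9 higher, namely *Nr3c1*, *Nr3c2* and *Tsc22d3*, and none lower, beside 9.68% and 12.4% of the 14029 genes to which it gave an adjusted p. In bulk tissue, fewer cells of a type and less RNA per cell cannot be told apart. Levels below are TMM-normalised RPM and are compared between rats for 1 gene at a time, since RPM does not account for transcript length.

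**Figure D1:**
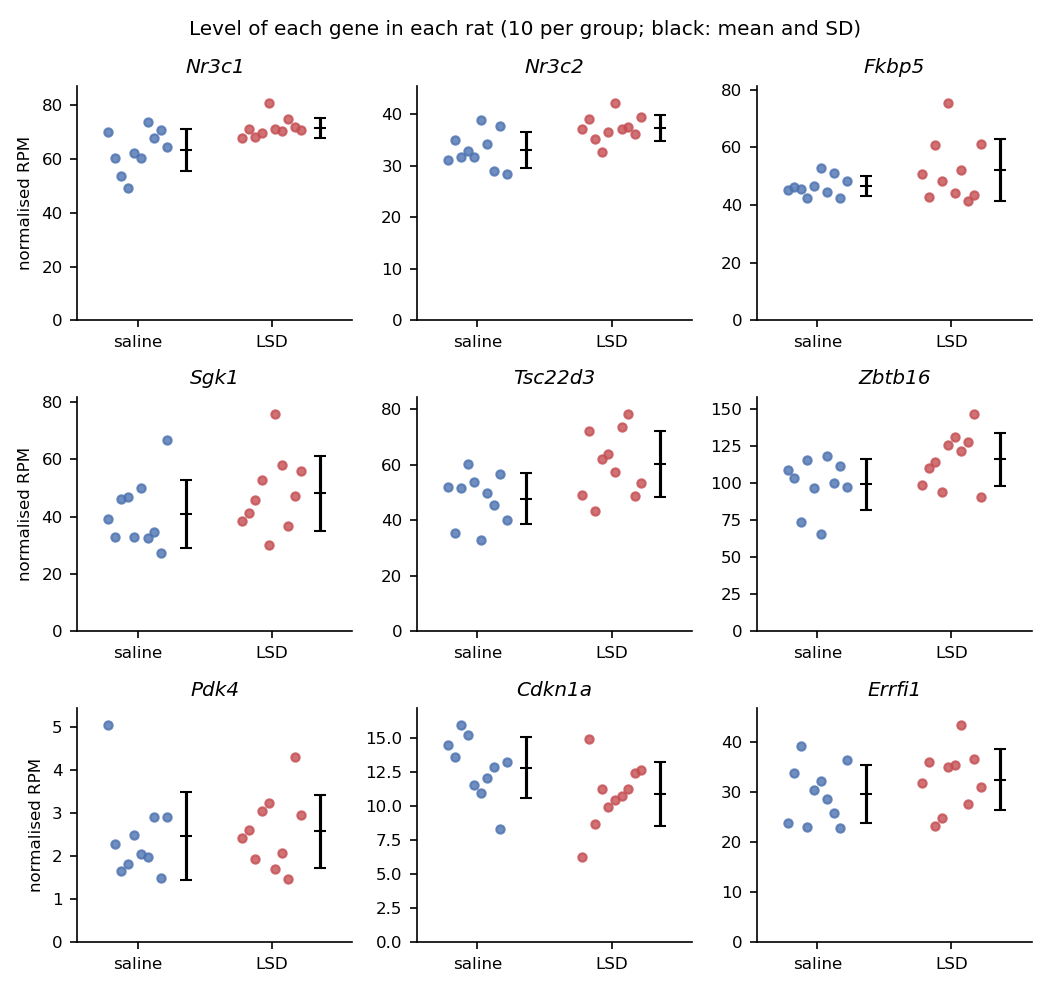
TMM-normalised RPM of each of the 9 genes in each rat, with 10 saline-treated rats (blue) and 10 LSD-treated rats (red) per panel and an axis that starts at 0. Black marks give the mean and SD, and the groups overlap for all 9 genes.

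*Nr3c1* had a lowest, median and highest level of 67.8, 70.9 and 80.7 RPM in LSD-treated rats and of 49.3, 63.5 and 73.9 RPM in controls. The LSD-treated rats all lay above the control median and formed a narrow band, whereas controls reached further down. Means were 71.6 ± 3.78 RPM (SD, n = 10) and 63.4 ± 7.76 RPM (SD, n = 10), a coefficient of variation of 5.28% against 12.2%. The log2 fold change was 0.18 (standard error 0.0617), or 1.13-fold, with an adjusted p of 0.0560. This p was 0.0350 with DESeq2 and 0.0373 without the 4 libraries high in striatal markers, and it passed the threshold in 3 of the 20 fits that leave out 1 rat (without control rats 2, 7 or 10).

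*Nr3c2* had a lowest, median and highest level of 32.7, 37.1 and 42.1 RPM in LSD-treated rats and of 28.3, 32.3 and 38.9 RPM in controls. Again every LSD-treated rat lay above the control median, 3 lay above the highest control, and 5 controls lay below the lowest LSD-treated rat. The mean was 37.3 ± 2.53 RPM (SD, n = 10) against 33.0 ± 3.45 RPM (SD, n = 10), or 0.17 on the log2 scale (standard error 0.0588, 95% confidence interval 0.05 to 0.29, adjusted p = 0.0498). The call was held by a narrow margin: it was kept in 4 of the 20 fits that leave out 1 rat, namely those without LSD rat 9 or control rats 2, 7 or 10, and the adjusted p ranged from 0.0149 to 0.0941 over all 20 fits.

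Both receptor genes span long stretches of the genome (121726 bases for *Nr3c1* and 344237 for *Nr3c2* on GRCr8). So do *Zbtb16* (187622 bases), *Fkbp5* (118297 bases) and *Sgk1* (117496 bases). After each rat's counts were corrected for gene span, the log2 estimate was 0.09 for *Nr3c1* (adjusted p = 0.315) and 0.06 for *Nr3c2* (adjusted p = 0.587), both from edgeR. The call of *Nr3c2* was thus lost. The balance between the receptors was compared by the log2 ratio of their reads within each rat. The ratio of *Nr3c2* to *Nr3c1* was -0.94 ± 0.121 (SD, n = 10) under LSD and -0.94 ± 0.144 (SD, n = 10) under saline, a difference of -0.01 (exact two-sided permutation test over 184756 splits, p = 0.919). A difference between groups in this ratio was not detected.

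**Figure D2:**
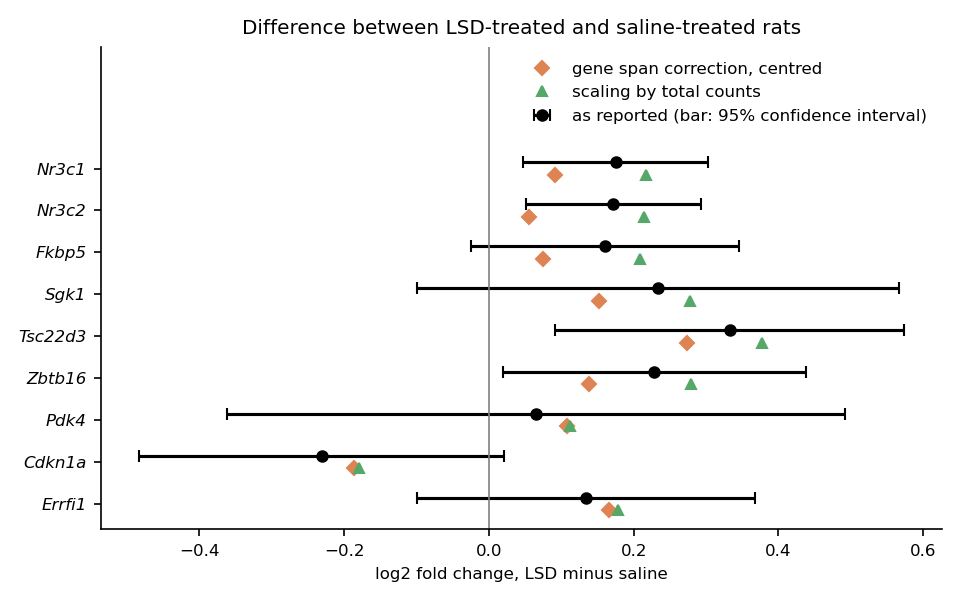
Log2 fold change (LSD minus saline) of each gene from edgeR with its 95% confidence interval (black), after correction for gene span (orange diamonds) and with scaling by total counts (green triangles). The intervals of *Nr3c1*, *Nr3c2*, *Tsc22d3* and *Zbtb16* lie above 0, and the span correction brings *Nr3c1* to 0.09 and *Nr3c2* to 0.06.

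*Fkbp5*, the cochaperone that closes a feedback loop on the receptor, had a lowest, median and highest level of 41.4, 49.6 and 75.3 RPM in LSD-treated rats and of 42.6, 45.9 and 52.8 RPM in controls. The controls lay within a small range, and 3 LSD-treated rats, numbers 7, 9 and 10, lay above it. The mean was 52.1 ± 10.8 RPM (SD, n = 10) against 46.6 ± 3.36 RPM (SD, n = 10), which gave 0.16 as log2 fold change (standard error 0.0897, adjusted p = 0.233 with edgeR). The coefficient of variation was 20.8% in LSD-treated rats and 7.21% in controls, a difference that was not tested. The estimate was 0.09 without LSD rat 10 and 0.07 with the span correction. The log2 ratio of *Fkbp5* to *Nr3c1* reads was -0.48 ± 0.310 (SD, n = 10) under LSD and -0.44 ± 0.173 (SD, n = 10) under saline (difference -0.05, exact two-sided permutation test, p = 0.681).

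*Tsc22d3* encodes GILZ, a leucine zipper protein through which glucocorticoids restrain inflammatory signalling. Its lowest, median and highest levels were 43.2, 59.8 and 78.1 RPM in LSD-treated rats and 32.8, 50.6 and 60.3 RPM in controls. Levels in 5 LSD-treated rats exceeded the highest control, and those in 3 controls were below the lowest LSD-treated rat. This was the largest log2 fold change of the 9 genes, 0.33 (standard error 0.116, 95% confidence interval 0.09 to 0.57), or 1.26-fold, with an adjusted p of 0.0553 in edgeR that misses the threshold. The adjusted p was 0.0304 with DESeq2 and 0.0425 without the 4 libraries high in striatal markers, and it passed in 6 of the 20 fits that leave out 1 rat (without LSD rats 1, 2 or 3 or control rats 2, 8 or 10). With the span correction the log2 fold change was 0.27 (adjusted p = 0.124).

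*Zbtb16*, which encodes the transcription factor PLZF, ranged from 90.8 to 146 RPM (median 118) in LSD-treated rats and from 65.5 to 118 RPM (median 102) in controls. Levels in 5 LSD-treated rats were above the highest control, and 2 controls, numbers 2 and 9, lay well below the rest of their group. Both are among the libraries high in striatal markers. The log2 fold change was 0.23 (standard error 0.101, 95% confidence interval 0.02 to 0.44) and did not pass adjustment (p = 0.126 with edgeR). It was 0.09 (adjusted p = 0.484) without the 4 libraries high in striatal markers and 0.14 (adjusted p = 0.368) with the span correction.

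*Sgk1*, a kinase that regulates ion channels and transporters, ranged from 30.1 to 75.6 RPM (median 46.6) in LSD-treated rats and from 27.4 to 66.7 RPM (median 36.8) in controls. The groups overlapped over most of their range, although 9 of 10 LSD-treated rats were above the control median. The estimate was 0.23 on the log2 scale with a standard error of 0.160 (adjusted p = 0.342 with edgeR). Without the 4 libraries high in striatal markers it was 0.39 (adjusted p = 0.104), and without LSD rat 7 it was 0.14. With the span correction the estimate was 0.15 (adjusted p = 0.583 with edgeR). *Pdk4*, a kinase that shifts cells from glucose towards fatty acid use, was counted with 21 to 115 reads per rat, from 1.48 to 4.30 RPM (median 2.52) in LSD-treated rats and from 1.49 to 5.04 RPM (median 2.16) in controls. Its log2 fold change of 0.07 had a confidence interval of -0.36 to 0.49, the widest of the 9 genes. Single rats moved this value, to 0.25 without control rat 8 and to -0.05 without LSD rat 7. For *Errfi1*, an inhibitor of the epidermal growth factor receptor, levels ranged from 23.3 to 43.4 RPM (median 33.4) in LSD-treated rats and from 22.9 to 39.2 RPM (median 29.5) in controls. The log2 fold change was 0.13 with a confidence interval of -0.10 to 0.37, and it was 0.08 without LSD rat 7.

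*Cdkn1a*, which encodes the cell cycle inhibitor p21, was the member gene with a negative estimate. It ranged from 6.26 to 14.9 RPM (median 10.98) in LSD-treated rats and from 8.36 to 15.9 RPM (median 13.1) in controls. Only LSD rat 10 was above the control median. The estimate was -0.23 on the log2 scale (standard error 0.122, 95% confidence interval -0.48 to 0.02, adjusted p = 0.205 with edgeR).

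The 9 genes differed widely in how much they varied between rats of 1 group. The biological coefficient of variation that edgeR estimates for a gene, 13.3% at the median over all genes, was 9.22% for *Nr3c2* and 9.88% for *Nr3c1*, higher than in 15.9% and 21.6% of all genes. It was 24.8% for *Sgk1* and 29.8% for *Pdk4*, higher than in 88.7% and 93.5% of all genes. The receptor genes thus lay among the steadier genes of this tissue and the response genes *Sgk1* and *Pdk4* among the more variable ones.

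To see whether the response genes varied together, each gene's log2(normalised RPM + 1) was centred within its group and correlated over the 20 rats. Of 36 pairs, 7 had a Benjamini-Hochberg adjusted permutation p under 0.05 (100000 shuffles within group), and all 7 were positive. *Sgk1*, *Tsc22d3*, *Pdk4* and *Errfi1* correlated in all 6 of their pairs, and *Fkbp5* correlated with *Tsc22d3*.

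The highest correlation joined *Sgk1* and *Pdk4* (Pearson's r = 0.826, adjusted permutation p = 0.00072, Spearman's rho = 0.786, adjusted permutation p = 0.0009), with r = 0.832 in LSD-treated rats, r = 0.823 in controls and r = 0.673 without the 2 rats farthest from the median of *Sgk1*. *Sgk1* and *Tsc22d3* followed with r = 0.799 (adjusted permutation p = 0.00072, rho = 0.848, adjusted permutation p = 0.00072, r = 0.782 without the 2 farthest rats). The 4 genes therefore ranked the rats alike. LSD rat 7 was the highest LSD-treated rat for *Sgk1*, *Pdk4* and *Errfi1*, and LSD rat 1 was the lowest for *Sgk1*, *Tsc22d3* and *Errfi1*. Control rat 8 was the highest control for *Sgk1*, *Pdk4* and *Tsc22d3*. LSD rat 7 also had the most reads on genes of all rats (25552681), and LSD rat 1 the fewest of the LSD-treated rats (16346629). The part of depth in this ranking was not tested.

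For *Errfi1*, r was 0.787 with *Tsc22d3* (adjusted permutation p = 0.000977, rho = 0.788, adjusted permutation p = 0.0009), 0.774 with *Sgk1* (adjusted permutation p = 0.000864, rho = 0.776, adjusted permutation p = 0.0009) and 0.753 with *Pdk4* (adjusted permutation p = 0.000977, rho = 0.744, adjusted permutation p = 0.00201). *Tsc22d3* and *Pdk4* gave r = 0.775 (adjusted permutation p = 0.000864, rho = 0.782, adjusted permutation p = 0.0009). These 4 relations had r between 0.696 and 0.727 without the 2 farthest rats. Together with the pairs above, the 6 pairs among *Sgk1*, *Tsc22d3*, *Pdk4* and *Errfi1* had r of 0.673 or more within each group of 10 rats.

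*Fkbp5* and *Tsc22d3* gave r = 0.713 (adjusted permutation p = 0.000864, rho = 0.794, adjusted permutation p = 0.0009, r = 0.684 without the 2 farthest rats), with r = 0.898 in LSD-treated rats and 0.499 in controls. Whether these groups differ in r was not tested. By rank, *Fkbp5* also passed with *Sgk1* (rho = 0.689, adjusted permutation p = 0.00585, r = 0.498), *Pdk4* (rho = 0.657, adjusted permutation p = 0.0107, r = 0.525) and *Errfi1* (rho = 0.594, adjusted permutation p = 0.0262, r = 0.527). Pearson's r of these 3 pairs did not pass, with adjusted permutation p between 0.0535 and 0.0819.

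**Figure D3:**
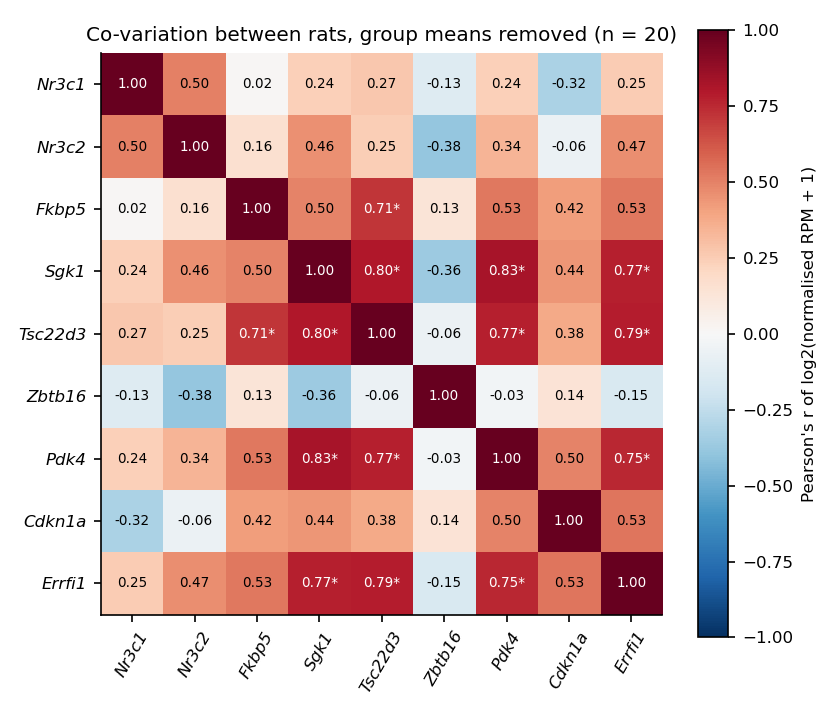
Pearson's r between each pair of the 9 genes over 20 rats, with group means removed, from log2(normalised RPM + 1). An asterisk marks the 7 pairs with an adjusted permutation p under 0.05, 6 of which join *Sgk1*, *Tsc22d3*, *Pdk4* and *Errfi1*.

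The receptor genes and *Zbtb16* stood outside this set. *Nr3c1* and *Nr3c2* correlated with each other at r = 0.504 (adjusted permutation p = 0.125, rho = 0.499, r = 0.434 without the 2 farthest rats), and *Nr3c1* and *Fkbp5* had r = 0.0154. *Zbtb16* had r between -0.385 and 0.136 with the other 8 genes. *Cdkn1a* came closest to the set with *Errfi1* (r = 0.534, adjusted permutation p = 0.0646, rho = 0.526, r = 0.376 without the 2 farthest rats). Without the 4 libraries high in striatal markers, 10 of the 36 pairs passed over 16 rats.

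**Figure D4:**
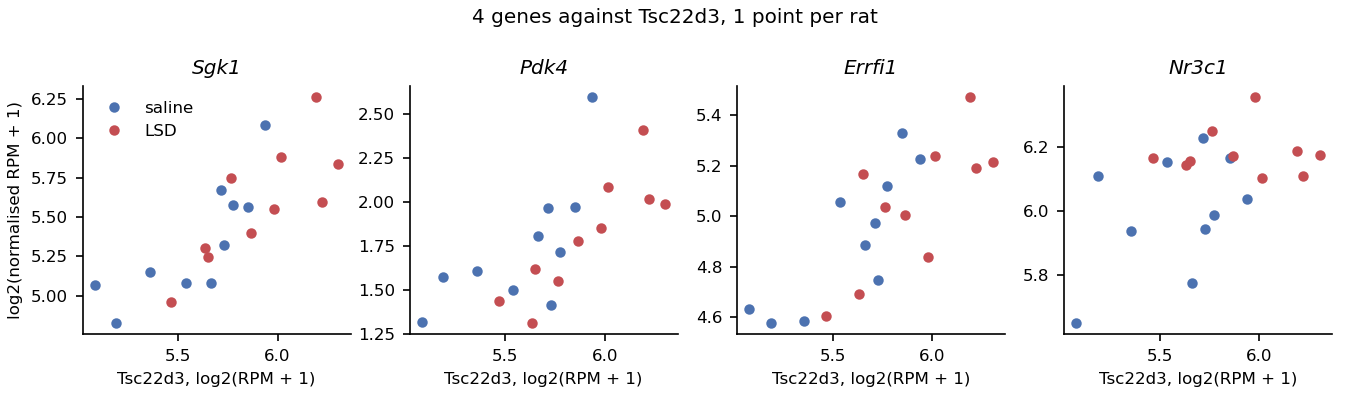
Log2(normalised RPM + 1) of *Sgk1*, *Pdk4*, *Errfi1* and *Nr3c1* against that of *Tsc22d3*, with 1 point per rat (blue, saline; red, LSD) and axes that do not start at 0. The first 3 genes climb with *Tsc22d3* in both groups, with r from 0.775 to 0.799 after the group means are removed, and *Nr3c1* does so less (r = 0.27).

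Depth and cell type markers were set beside the 9 genes over the same rats. Among 81 relations of the 9 genes with reads on genes and with the summed level of marker lists, none had an adjusted permutation p under 0.05. The smallest was 0.0504, reached by *Fkbp5* with astrocyte markers (r = 0.598, rho = 0.580), with reads on genes (r = 0.547, rho = 0.608) and with neuron markers (r = -0.586, rho = -0.594), and by *Errfi1* with neuron markers (r = -0.665, rho = -0.642). Neuron markers also had r = -0.598 with *Tsc22d3* (adjusted permutation p = 0.0995, rho = -0.597), and reads on genes had r = 0.594 with *Sgk1* (adjusted permutation p = 0.0995, rho = 0.588). Without the 2 farthest rats, these 6 relations kept their sign, with r of 0.503 or more in size. With reads on genes, r was 0.603 for *Nr3c1* (rho = 0.592), 0.523 for *Nr3c2* (rho = 0.376) and 0.555 for *Tsc22d3* (rho = 0.639). The adjusted permutation p of r was 0.135, 0.22 and 0.135 in the same order. Without the 2 farthest rats, r was 0.367, 0.177 and 0.771. The part of depth and of cell type markers in the differences between groups and in the correlations between response genes was not tested. Between groups, the summed neuron markers were 5562 to 6879 RPM in LSD-treated rats and 5398 to 7167 RPM in controls, and the astrocyte markers 2120 to 2807 RPM and 1965 to 2724 RPM, with 1 of 7 and 1 of 6 markers called higher (*Gad2*, log2 fold change 0.23, adjusted p = 0.0365, and *Slc1a2*, 0.41, adjusted p = 0.0450, both from edgeR). These calls are 14.3% and 16.7% of the lists, beside 6.43% of all genes called higher. The neuron markers *Rbfox3* (-0.18) and *Slc17a7* (-0.17) were lower at an unadjusted p under 0.05, as were 16.3% of all genes, and not after adjustment. With 1 rat left out, the calls of *Gad2* and *Slc1a2* held in 9 and 5 of 20 fits, and the span correction ended both. The 6 oligodendrocyte markers all had negative log2 fold changes (median -0.35) and none was called by edgeR. At an unadjusted p under 0.05, 2 were lower, beside 16.3% of all genes, and DESeq2 called 1 lower, beside 12.4%. The summed level of these 6 markers was 2231 to 5758 RPM in LSD-treated rats and 2194 to 7476 RPM in controls.

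The 5 blood markers also had negative log2 fold changes (median -0.29), with no call by edgeR. DESeq2 called 2 of them lower, beside 12.4% of all genes. Of 6 microglial, 4 choroid plexus and 3 leptomeningeal markers none was called by edgeR, at an unadjusted p under 0.05 or by DESeq2. Of 5 endothelial markers, *Abcb1a*, described below with the transporters, was called higher by edgeR, 20% of the list beside 6.43% of all genes. At an unadjusted p under 0.05, 2 were lower (*Cldn5*, -0.18, and *Pecam1*, -0.17 on the log2 scale), beside 16.3% of all genes. DESeq2 called 1 lower, beside 12.4% of all genes. No marker of these lists was at 0 in all rats.

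The genes whose levels over the 20 rats were most like those of each member gene were also listed, by Pearson's r after centring within group and among 16604 genes. *Nr3c1* was closest to *Fsd1l* (r = 0.911), *Arap2* (0.899) and *Nmt2* (0.899), and *Nr3c2* to *Jade3* (0.797), *Senp7* (0.776) and *Pde1a* (0.772). *Fkbp5* was closest to *Gramd3* (0.865), *Lonrf3* (0.843) and *Gpt2* (0.836), and *Tsc22d3* to *Mr1* (0.846), *Aspa* (0.844) and *Mitf* (0.842). *Sgk1* was closest to *Zfp189* (0.831), *RGD1564247* (0.831) and *Kif20b* (0.828), and *Errfi1* to *Abi3bp* (0.914), *Phldb2* (0.869) and *Veph1* (0.866). Another response gene stood among the 3 closest for 1 member: *Pdk4* was closest to *Ccdc117* (0.831), *Sgk1* (0.826) and *Bcl6* (0.796), a transcriptional repressor from the list of other response genes. *Cdkn1a* was closest to *Mycn* (0.818), *Spry4* (0.818) and *LOC103691752* (0.786). *Zbtb16* was closest to the clock gene *Per2* (0.769), to *Plekho2* (0.766) and to *Rnf216* (0.736), although its r with *Per2* was 0.495 without the 2 farthest rats. These values compare genes counted in the same libraries, whose depth differs between rats. They are the highest of many, so no test is given.

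A further 39 tested genes known to respond to glucocorticoids were compared with each member gene in the same way. The share with r of at least 0.5 was 33.3% for *Errfi1* (13 of 39), 25.6% for *Fkbp5* (10 of 39), 23.1% each for *Tsc22d3* and *Cdkn1a* (9 of 39) and 17.9% for *Pdk4* (7 of 39). Over all genes these shares were 10.2%, 9.61%, 14.6%, 2.42% and 4.99%. For *Sgk1* the share was 12.8% (5 of 39) beside 9.64% of all genes, and for *Zbtb16* it was 5.13% (2 of 39) beside 2.42%. Neither receptor gene reached r of 0.5 with any of the 39, while 12.3% and 6.52% of all genes did so with *Nr3c1* and *Nr3c2*. Examples with *Errfi1* were *Map3k6* (r = 0.818) and *Sult1a1* (r = 0.808), with *Fkbp5* the metallothionein gene *Mt2A* (r = 0.780) and the lipase inhibitor gene *Angptl4* (r = 0.745), and with *Cdkn1a* the phosphatase gene *Dusp4* (r = 0.774).

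Between groups, the median of these 39 genes was -0.01 on the log2 scale, with 19 of 39 positive. edgeR called 4 lower and none higher, 10.3% of the list. Over all genes it called 8.42% lower, 6.43% higher and 14.9% in either direction. At an unadjusted p under 0.05, 4 were higher and 5 lower, beside 14.4% and 16.3% of all genes. DESeq2 called 1 higher and 5 lower, beside 9.68% and 12.4% of all genes. Among those called were *Tgm2*, a transglutaminase (log2 fold change -0.52, adjusted p = 0.0305), *Rhob*, a small GTPase (-0.24, adjusted p = 0.0174), and *Wipf3*, an actin regulator (-0.25, adjusted p = 0.0185). For *Rhob* no LSD-treated rat was above the control median, and for *Tgm2* and *Wipf3* 1 rat was. With 1 rat left out, *Rhob* and *Wipf3* kept their calls in all 20 fits and *Tgm2* in 16, while the span correction ended the call of *Rhob*. The most used reporters on this list did not pass: the clock gene *Per1* stood at 0.29 on the log2 scale (adjusted p = 0.159) and the zinc finger gene *Klf9* at 0.11 (adjusted p = 0.248, both from edgeR).

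**Figure D5:**
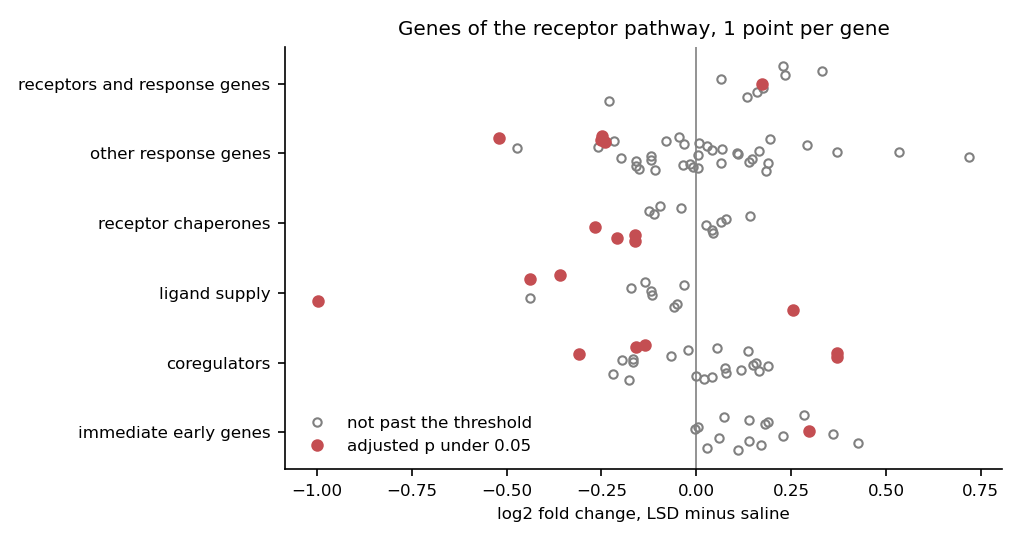
Log2 fold change (LSD minus saline, edgeR) of the genes of each list of the receptor pathway, with 1 point per gene. Filled red points have an adjusted p under 0.05. The receptor chaperones have 4 such genes, all lower in LSD-treated rats (28.6% of the list, beside 8.42% of all genes called lower).

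Among the chaperones that fold and hold the receptor, 14 of 16 genes in the matrix passed the filter on low counts, and edgeR called 4 of the 14 lower and none higher, also at an unadjusted p under 0.05 (0 higher, 6 lower) and with DESeq2 (0 higher, 4 lower). The 4 edgeR calls are 28.6% of the list, beside 8.42% of all genes called lower and 14.9% called in either direction. The list's median log2 fold change was -0.07. *Fkbp4* encodes FKBP52, the immunophilin that replaces FKBP51, the product of *Fkbp5*, on the receptor and helps carry it to the nucleus. Its lowest, median and highest levels were 164, 175 and 197 RPM in LSD-treated rats and 183, 217 and 234 RPM in controls. No LSD-treated rat was above the control median, although the ranges overlapped. The means were 177 ± 9.52 RPM (SD, n = 10) and 213 ± 16.6 RPM (SD, n = 10), -0.27 on the log2 scale (standard error 0.0491, adjusted p = 0.00393 with edgeR), and the call held under all 11 alternative analyses and in all 20 fits that leave out 1 rat.

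The other chaperone genes called lower were *Ahsa1*, an activator of HSP90 (log2 fold change -0.16, adjusted p = 0.0199), *Cdc37*, which brings kinases to HSP90 (-0.16, adjusted p = 0.0371), and *Bag1*, a partner of HSP70 (-0.21, adjusted p = 0.0465). The call of *Ahsa1* held in 20, that of *Cdc37* in 9 and that of *Bag1* in 8 of the 20 fits that leave out 1 rat. The span correction and scaling by total counts each ended these 3 calls but not that of *Fkbp4*. *Hsp90ab1*, the constitutive HSP90, was at 824 ± 50.2 RPM (SD, n = 10) under LSD and 809 ± 43.4 RPM (SD, n = 10) under saline (log2 fold change 0.03, adjusted p = 0.748 with edgeR). *Hsp90aa1* and *Hspa1a* had at most 8 and 10 reads in a rat and were not tested.

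Of 12 tested genes that supply or clear the hormone, 1 was called higher and 3 lower, 33.3% of the list beside 14.9% of all genes, the list's median being -0.13 on the log2 scale. DESeq2 called 1 higher and 2 lower, and scaling by total counts left 1 higher and 1 lower. *Srd5a1*, the steroid 5-alpha reductase, was at 22.5 ± 2.92 RPM (SD, n = 10) under LSD and 28.9 ± 4.33 RPM (SD, n = 10) under saline (log2 fold change -0.36, adjusted p = 0.0101), and its call held under all 11 alternative analyses. *Abcb1a*, the P-glycoprotein transporter of vessel walls, which also stands on the list of endothelial markers, was higher (0.25, adjusted p = 0.0410). *Pomc*, the precursor of corticotropin, had 29 to 74 reads per rat and was lower (-0.44, adjusted p = 0.0317). *Avp*, the vasopressin gene, had 5 to 55 reads per rat and an estimate of -0.998 on the log2 scale (adjusted p = 0.0378), a value that was -0.57 (adjusted p = 0.0780, all from edgeR) without control rat 10. With 1 rat left out, the calls of *Pomc* and *Avp* each held in 11 of 20 fits and that of *Abcb1a* in 8, and the span correction ended all 3. For *Hsd11b1*, which regenerates active corticosterone inside cells, the estimate was -0.14 (adjusted p = 0.166).

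Of 24 coregulators that work with the receptors on DNA, 2 were called higher and 3 lower, 20.8% of the list beside 14.9% of all genes, with a median log2 fold change of 0.03. The balance depended on the analysis, with 4 higher and 4 lower by DESeq2 and 5 higher and 1 lower with scaling by total counts. *Nrip1*, a corepressor, and *Ppargc1a*, a coactivator of genes of energy metabolism, were both higher by 0.37 on the log2 scale (adjusted p = 0.00830 and 0.00479), with each of the 10 LSD-treated rats over the control median. *Pias4*, a SUMO ligase, was lower (log2 fold change -0.31, adjusted p = 0.00843), with no LSD-treated rat above the control median. These 3 calls held under all 11 alternative analyses and in all 20 fits that leave out 1 rat. *Tsg101* (-0.16, adjusted p = 0.0322, all from edgeR) was also lower, and with 1 rat left out its call held in 10 of 20 fits.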

How the data were processed

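RNA from the mPFC of 20 rats was sequenced with 1 library per rat, and groups were taken from the sample labels. Per the study's methods and the labels, the authors used TrimGalore for trimming, HISAT2 for alignment to rn6 and HTSeq for counting, and they deposited raw counts per gene, not normalised. Tool versions, gene annotation and strand setting are not given in the sources used here. The last 5 entries of the matrix have no name, hold 25.5% to 29.0% of each library's counts and were left out. Each rat had between 11098076 and 25552681 reads on genes.

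A gene was kept when 10 or more samples had 5 or more reads on it. The robust quasi-likelihood test of edgeR 4.0.16 (R 4.3.3) was run on TMM-scaled counts of 10 rats per group without covariates, and the Benjamini-Hochberg adjusted p had to be under 0.05. The test was checked on counts simulated from its own fitted model, with planted changes larger than those of the member genes. The check therefore does not cover changes of their size. The alternatives comprised total-count scaling, median-ratio size factors, DESeq2 1.42.0, other count filters, a block for the replicate number, sva 3.50.0 with 1 surrogate variable, a correction for gene span, reads drawn down to 11098076 per rat, each rat left out, and the removal of 4 libraries high in *Adora2a*, which was chosen after seeing the data. Span was taken from GRCr8, which held 85.9% of the kept genes, over 50 bins of genes. Permutation tests used scipy 1.17.1 and were two-sided. Likeness between genes used log2(normalised RPM + 1), and the r of 0.5 for the shares of response genes was chosen after seeing the data.

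Named genes are the 9 member genes, up to 4 genes per direction with the smallest p among those called in each list, the 3 genes most like each member gene, and examples of the response genes most like a member. Some genes that this rule names are not reported here. *Per1*, *Klf9*, *Hsp90ab1*, *Hsp90aa1*, *Hspa1a*, *Hsd11b1*, *Adora2a*, *Cldn5*, *Pecam1*, *Rbfox3*, *Slc17a7*, *Egr1* and *Fos* were named after their values were seen. The member genes, the lists and the tests were chosen with earlier results of these data known.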

Additional observations from a re-analysis of the deposited data

Results flagged for a closer look

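Control rat 8 had 5.04 normalised RPM of *Pdk4*, the gene of the kinase that restrains pyruvate use, and the next control had 2.92 RPM. The gap is 0.598 of the range of the 10 controls, above Dixon's critical value for 10 samples. In all, 22 groups of 10 rats were examined in this way, of which chance alone would single out about 1 in 20. The same rat was the highest control for *Sgk1* and *Tsc22d3*, and it is 1 of the 4 libraries high in striatal markers.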

How the results depend on the processing

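The count of member genes called higher, 1 in the analysis reported, was 3 with DESeq2, with a filter of 10 reads in 10 samples and without the 4 libraries high in striatal markers, 2 with scaling by total counts and with 1 surrogate variable, 0 without a filter on low counts and 0 with the span correction. It ranged from 0 to 3 with 1 rat left out, and no member was called lower in any of these fits. Over all genes, the count called higher also differed between these fits. It was 1068 of 16605 in the analysis reported and 1358 of the 14029 with an adjusted p in DESeq2. The stricter filter gave 1214 of 15384, and the fit without the 4 libraries 1711 of 16235. Scaling by total counts gave 1505, 1 surrogate variable 1289 and the span correction 607, each of 16605. Without a filter it was 938 of 25199. The cause of the changes in the member count was not tested.

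Over all genes, 1068 were higher and 1398 lower (56.7% lower). Scaling by total counts gave 861 lower genes (36.4% lower) and moved the median over all genes to 0.05 on the log2 scale. No filter gave 804 lower genes (46.2% lower), the span correction 607 higher genes (64.2% lower), and the removal of the 4 libraries 1711 higher genes. With 1 rat left out, 661 to 1668 genes were higher and 953 to 1900 lower. The difference in the ratio of *Nr3c2* to *Nr3c1* was 0.020 with reads drawn down and 0.00714 without the 4 libraries, and ranged from -0.039 to 0.027 with 1 rat left out. That of *Fkbp5* to *Nr3c1* ranged from -0.12 to -0.01. The log2 fold change of *Pdk4* ranged from -0.0505 without LSD rat 7 to 0.25 without control rat 8. Scaling by total counts gave 17 correlated pairs in place of 7. Of the genes called in the 5 other lists, *Fkbp4*, *Srd5a1*, *Nrip1*, *Ppargc1a* and *Pias4* were called in all 11 alternatives, and each of the others lost its call in at least 1.

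Rats with the same replicate number are not said to share a batch. Their deviations from the group mean correlated with r from -0.26 to 0.47 (mean 0.145, against -0.0157 between other numbers), over 0.1 in 6 of 10 pairs. Because the labels state no pairing, the block for the replicate number was used as an alternative only. Whether rats of the same number share a source of variation was not tested. With the replicate block, 2 member genes were higher, *Nr3c2* (adjusted p = 0.0470) and *Tsc22d3* (adjusted p = 0.00898, edgeR), and the block with the span correction gave 1, *Tsc22d3*. Over all 16605 genes, 1378 were higher with the block and 832 with the block and the span correction.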

Other observations

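The 16 immediate early genes of neuronal activity had mostly positive estimates. Log2 fold changes were positive for 15 of 16, beside 50.4% of all genes, with a median of 0.16, and 1 gene (6.25%, beside 6.43% of all genes) was called higher by edgeR, at an unadjusted p under 0.05 and by DESeq2. This was *Homer1*, which encodes a postsynaptic scaffold, at 87.3 ± 11.6 RPM (SD, n = 10) under LSD and 71.0 ± 10.8 RPM (SD, n = 10) under saline (log2 fold change 0.30, adjusted p = 0.0243 with edgeR, and 0.0508 without LSD rat 8). The span correction also ended this call. For *Egr1* the estimate was 0.17 (standard error 0.149) and for *Fos* 0.23 (standard error 0.262).

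The relation of *Cdkn1a* to other response genes had unlike values within the groups. With *Fkbp5*, its Pearson's r was 0.730 in LSD-treated rats and -0.551 in controls, and with *Tsc22d3* it was 0.716 and -0.0247. Over all 20 rats with group means removed, these pairs did not pass adjustment (r = 0.415 and 0.379, rho = 0.323 and 0.417, adjusted permutation p = 0.220 for both). Without the 2 rats farthest from the median, r was -0.0289 with *Fkbp5* and 0.329 with *Tsc22d3*. The difference between groups was not tested.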
